A study of Mus musculus with 4 samples.

Results

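Genes for iron uptake, storage and export were read in endothelial cells (ECs) of the dura mater (dural ECs), the outer membrane around the brain, and in ECs of the brain itself. The 10 genes are Tfrc, Trf, Slc11a2, Fth1, Ftl1, Slc40a1, Heph, Hmox1, Aco1 and Ireb2, and each was taken by its gene symbol from the 23282 entries of the count tables. All 10 were among the 9347 genes that passed edgeR's filter on low counts. The study compared ECs of the 2 tissues after it had seen a difference in their sprouting. Brain ECs (2 libraries) and dura mater ECs (2 libraries) were taken from C57BL/6J mice at 8 weeks, with no genetic change or treatment named in the labels. According to the methods of the study, cells were freed with collagenase type I, dispase and DNase I, red cells were lysed, and cells were sorted after staining for CD31 (a marker of ECs), CD45 (leukocytes) and TER-119 (erythroid cells). The gate itself is not spelled out there. Only the brain ECs went through enrichment on magnetic beads before the sort, so this step and the tissue cannot be told apart. Neither the number of mice behind a library nor separate animals for the 2 libraries of a tissue are stated, and p-values therefore measure the spread between libraries, which may be technical.

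Iron in plasma travels on transferrin (Trf), and cells take it up through the transferrin receptor (Tfrc), which is carried into endosomes and back to the surface. Iron leaves the endosome through the transporter DMT1 (Slc11a2), is stored in shells of ferritin heavy and light chains (Fth1, Ftl1), and leaves the cell through ferroportin (Slc40a1), the known iron exporter of mammalian cells, with the help of ferroxidases such as hephaestin (Heph). Heme oxygenase 1 (Hmox1) frees iron from heme. Brain capillary ECs are known for abundant transferrin receptor on their blood side, through which iron crosses the blood-brain barrier.

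The core of a short element was matched in the transcripts of 4 of the 10 members. The iron regulatory proteins IRP1 (Aco1) and IRP2 (Ireb2) bind a short hairpin, the iron-responsive element. In the 5′ untranslated region (UTR) the hairpin holds back translation, and in the 3′ UTR it protects the transcript from decay. Transcripts of GENCODE M21 (GRCm38) were searched on the sense strand for the core motif CNNNNNCAGTGNNNNNN, in which the 5 bases before the loop had to pair with the last 5, G with T allowed. A match was found in the 5′ UTR of 31 of 20916 protein-coding genes (0.148%) and in the 3′ UTR of 129 of 21707 (0.594%). These genes included Fth1, Ftl1 and Slc40a1 on the 5′ side and Tfrc on the 3′ side, and no match was found in the UTRs of Trf, Slc11a2, Hmox1, Aco1, Ireb2 and Heph. The sites are printed as DNA, 5′ to 3′ along the transcript, because they show a feature that these 4 members have in common. The motif is that of the known element of iron genes, so finding it among the members is no independent result. Capitals mark the first 5 bases of the loop.
Tfrc 3′ site 1, chr16:32631218-32631247, plus strand: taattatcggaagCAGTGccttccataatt
Tfrc 3′ site 2, chr16:32631597-32631626, plus strand: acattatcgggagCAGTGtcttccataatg
Tfrc 3′ site 3, chr16:32631662-32631691, plus strand: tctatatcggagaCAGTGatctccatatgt
Tfrc 3′ site 4, chr16:32631709-32631738, plus strand: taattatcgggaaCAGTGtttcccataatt
Fth1 5′ site, chr19:9982731-9982760, plus strand: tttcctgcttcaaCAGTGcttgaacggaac
Ftl1 5′ site, chr7:45459779-45459808, minus strand: tgtcttgcttcaaCAGTGtttgaacggaac
Slc40a1 5′ site, chr1:45925465-45925494, minus strand: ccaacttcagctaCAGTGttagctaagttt

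The Tfrc 3′ UTR held 4 matches in 2461 bases. Of 3307 other genes with a 3′ UTR within 25% of that length, 42 (1.27%) held a match and 0 held 4 or more. A match says that these letters are present, and the absence of a match says only that this exact core is not in the annotated UTRs.

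Libraries held from 13518973 to 16096203 counts, and from 9350 to 11803 symbols had at least 1 count. The 15 pan-endothelial markers, such as Esam and Egfl7, were counted in each library and summed to 13838 to 17065 CPM, with the tissues overlapping. Replicates of the same tissue lay far apart: among 6610 genes with counts in each library, the median gene differed 2.27-fold between the brain libraries and 1.82-fold between the dural libraries. Levels in CPM are counts relative to the library size after trimmed-mean (TMM) scaling, not per transcript length, since these libraries read 3′ ends. Fold changes are dural over brain. The plot of the members by library shows the level in each library.

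**Figure D1:**
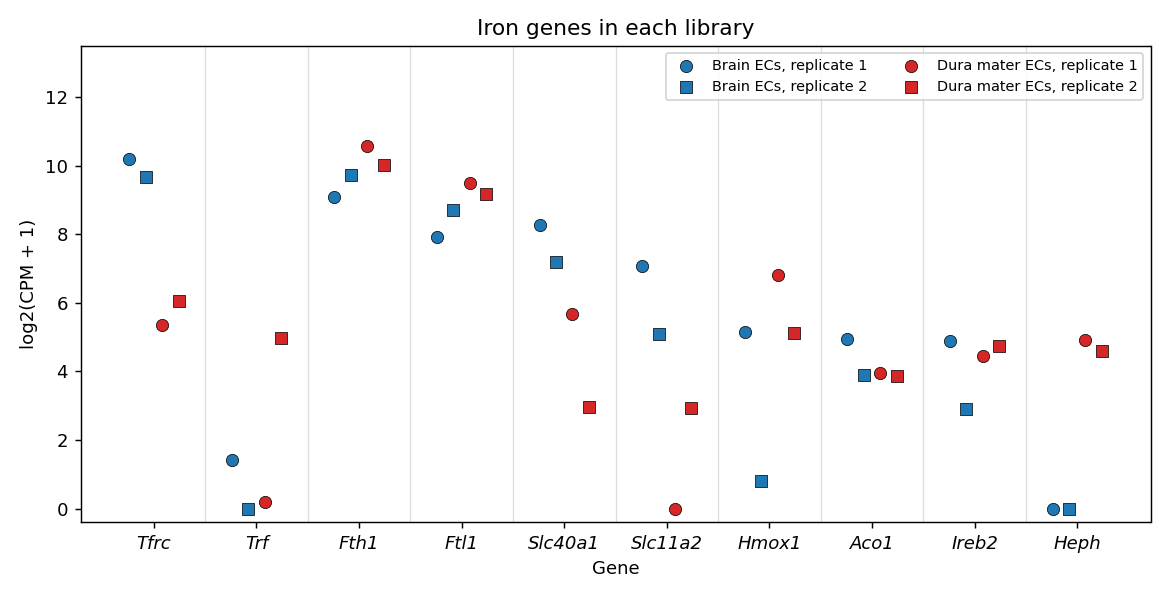
Level of each iron gene as log2(CPM + 1) in the 4 libraries (blue, brain ECs; red, dural ECs; circles, replicate 1; squares, replicate 2). Tfrc, Slc40a1 and Slc11a2 were lower in both dural libraries than in both brain libraries, and Fth1, Ftl1 and Heph were higher; the other 4 genes overlapped between tissues.

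Tfrc fell in dural ECs, and it was the only member past the threshold in the edgeR test. Tfrc (chromosome 16, 32608920 to 32632794, plus strand, GRCm38) had 17038 and 10730 counts in brain and 537 and 1062 counts in dural ECs. These were 1175 and 811 CPM against 40.0 and 65.1 CPM, so that the lowest brain library stood well above the highest dural library. The mean was 993 ± 258 CPM in brain ECs and 52.5 ± 17.7 CPM in dural ECs (SD, n = 2). The log2 fold change was −4.24 (SE 0.48), with an edgeR adjusted p of 0.0248. It was past the threshold under each of 15 alternatives. Among those with all 4 libraries, adjusted p ran from 3.0e-16 (DESeq2) to 0.0284 (edgeR, upper-quartile scaling). The alternative prior count of 0.5 changes the fold change but not the test, so its call was bound to stay. Of the 9347 genes tested, 0.182% were called lower in dural ECs and 0.428% higher. Tfrc is thus 1 lower call and 0 higher calls among the 10 members.

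Transcripts of red cells moved in the same direction. Immature red cells carry much transferrin receptor, and the cells were stained for the erythroid marker TER-119 before the sort. Of the 14 erythroid markers measured, 8 could be tested, and each of the 8 had a log2 fold change below 0 (median −4.28), with 5 called lower. The list summed to 26514 and 38058 CPM in brain ECs and to 2196 and 1146 CPM in dural ECs, mostly from globin symbols, which may hold the same reads. The defining erythroid markers Slc4a1, Ermap, Klf1 and Gata1 had 0 counts in each of the 4 libraries. Alas2, the erythroid heme enzyme, had 755 and 2624 counts in brain and 0 and 192 in dural ECs. Within each tissue the library with more erythroid CPM was the one with less Tfrc. With 2 libraries a tissue this order may be chance, and nothing is drawn from it. With scaling computed without the erythroid list, Tfrc was called as before, but scaling does not take out Tfrc reads that come from red cells. The part of red cell RNA in the Tfrc level was not tested. In bulk samples, fewer cells of a type and less RNA per cell cannot be told apart.

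Markers of barrier endothelium were lower beside Tfrc. Each of the 20 listed genes, among them Slc2a1, the glucose transporter of barrier ECs, and Slco1a4, an organic anion transporter, had a log2 fold change below 0 (median −3.28), and 6 were called lower. They summed to 36184 and 32698 CPM in brain ECs and to 6654 and 6977 CPM in dural ECs. Tfrc is not in this list.

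**Figure D2:**
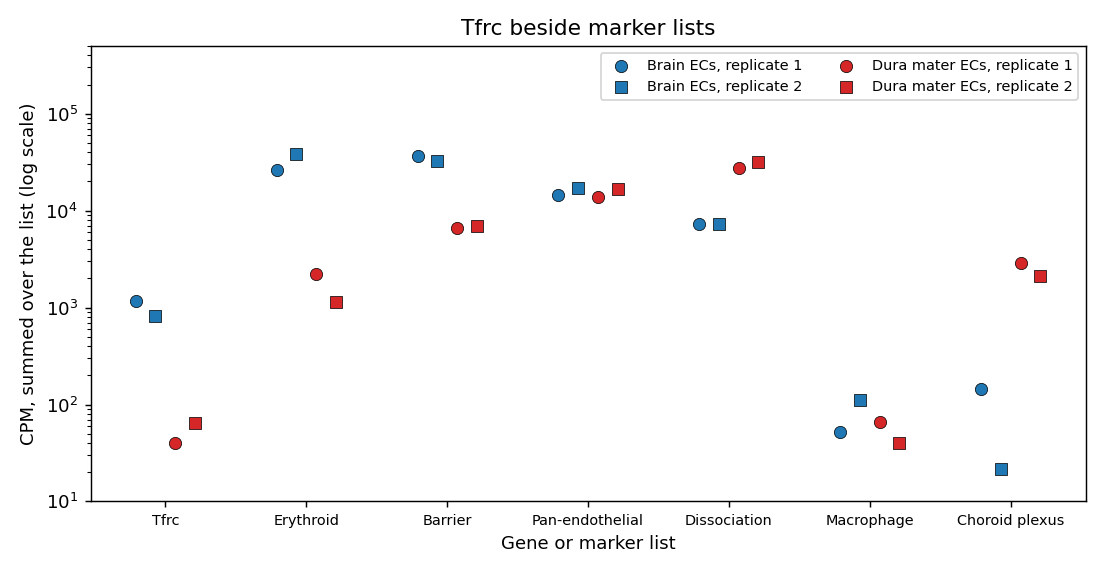
Tfrc in CPM and the summed CPM of 6 marker lists (log scale) in the 4 libraries (blue, brain ECs; red, dural ECs; circles, replicate 1; squares, replicate 2). Tfrc, erythroid and barrier markers were lower in both dural libraries, pan-endothelial and macrophage markers overlapped, and dissociation and choroid plexus markers were higher.

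The profile of Tfrc over the 4 libraries was compared with each of the other tested genes by the distance between log2(CPM + 1) values centred on each gene's mean. The 5 nearest were Ubxn2b, Zdhhc24, Plekhn1, Grk4 and Igsf5, at distances from 0.298 to 0.510. All 5 were lower in both dural libraries, which follows from how they were picked. None was called in edgeR. Their means were from 17.0 to 33.8 CPM in brain ECs and at most 0.847 CPM in dural ECs. They thus stood near 0 in dural ECs, whereas Tfrc remained at 537 counts or more.

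Partners of the receptor varied widely between replicates. Trf, transferrin itself (chromosome 9, 103204001 to 103230444, minus strand), had 24 and 0 counts in brain and 2 and 496 in dural ECs. Its level thus came from dural replicate 2, at 30.4 CPM, while the other 3 libraries were at 1.66 CPM or less. The log2 fold change was 3.99 (SE 3.78, adjusted p 0.954 in edgeR), and it was −1.73 without dural replicate 2. Oligodendrocytes and choroid plexus are known sources of transferrin in the head. The oligodendrocyte list summed to more in brain ECs (1109 and 1116 CPM) than in dural ECs (284 and 170 CPM), mostly from Mal, and its members Mag, Mobp, Opalin and Ermn had 0 counts in each library. The choroid plexus list summed to 146 and 21.5 CPM against 2860 and 2138 CPM, with Ttr at 19738 and 13352 counts in dural ECs and Otx2 at 0 in each library. Aqp1, which the study treats as a gene of dural ECs, is a member of that list. The part of these cells in the Trf count was not tested. In the annotation a neighbouring gene on the same strand, Gm20425, shares 63.5% of the exon length of Trf, so its count is uncertain.

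Slc11a2, the endosomal iron transporter (chromosome 15, 100387898 to 100425072, minus strand), had 1925 and 439 counts in brain and 0 and 108 in dural ECs. Both brain libraries, at 133 and 33.2 CPM, stood above the dural libraries, at 0 and 6.62 CPM. Brain replicate 1 held far more than brain replicate 2, and in dural ECs replicate 2 alone had counts. The log2 fold change of −4.59 (SE 2.68) did not pass in edgeR (adjusted p 0.652), and without brain replicate 2 it was −5.37 with an adjusted p of 0.0206 (from 0.0206 to 0.986 over the alternatives). Fits that leave out a library have 1 library in that tissue, take the spread from the other tissue alone and assume that the lone library varies alike. Exons of the antisense gene Gm5475 cover 6.33% of its exon length, and whether counting used strand is not given.

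The exporter and its ferroxidase lay in opposite directions. Slc40a1, ferroportin (chromosome 1, 45908068 to 45926523, minus strand), had 4508 and 1931 counts in brain and 675 and 112 in dural ECs. Brain libraries were at 311 and 146 CPM and dural libraries at 50.3 and 6.86 CPM, with no overlap, although the dural libraries differed 7.34-fold from each other. The mean of 228 ± 117 CPM in brain ECs against 28.6 ± 30.7 CPM in dural ECs (SD, n = 2) gave a log2 fold change of −2.99 (SE 1.09, unadjusted p 0.0323, adjusted p 0.466 in edgeR). It was past the threshold under 3 of 15 alternatives. Without brain replicate 2 it was −3.47 with an adjusted p of 0.000197 (from 0.000197 to 0.665 over the alternatives), with the spread again from the dural libraries alone. Macrophages are rich in ferroportin, and their markers summed to 51.5 and 111 CPM in brain ECs and to 66.5 and 40.2 CPM in dural ECs, which overlapped. Of the 4 macrophage markers tested, Csf1r, C1qa and C1qc had log2 fold changes below 0 and Cd68 above 0 (median −2.70), and 0 were called. Cd163, Clec4f and Vsig4 had 0 counts in each library, and Ptprc, which encodes CD45, had from 1 to 4 counts. The part of macrophages in the Slc40a1 level was not tested.

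Heph, hephaestin (chromosome X, 96455359 to 96574485, plus strand), was at 0 in both brain libraries and had 392 and 382 counts in dural ECs. The dural libraries were at 29.2 and 23.4 CPM, close to each other. Against a floor of 3 counts in each brain library, Heph was at least 121-fold higher in dural ECs. That floor covers counting error only and not the spread between libraries. Steap3, for one, had 0 and 923 counts in the brain libraries. Its edgeR adjusted p was 0.466 (unadjusted p 0.0368), and DESeq2 called it higher with an adjusted p of 0.0151 (from 0.0151 to 0.969 over the alternatives). In DESeq2, 6.6% of the 9347 genes were called higher and 2.03% lower, and the members called were Heph and Tfrc. The lists of fibroblast and astrocyte markers summed to more beside Heph. Fibroblast markers summed to 3662 and 3487 CPM in brain against 11700 and 11754 CPM in dural ECs, mostly from Mgp. Of the 6 tested, 5 were above 0, with Mgp called, and Fn1 went the other way (log2 fold change −1.48 in edgeR). Col1a2 had 4 and 31 counts in brain and 1135 and 1913 in dural ECs. Dcn had 16 and 15 against 1184 and 1664, and Col1a1 had 20 and 42 against 759 and 1237. Col3a1 had 63 and 579 against 1443 and 962, and none of these collagen genes or Dcn was called in edgeR. Pdgfra and Lum had at most 4 counts in any library. Astrocyte markers summed to 52.7 and 80.6 against 439 and 191 CPM (4 of 5 above 0, 0 called, Aqp4 at 0 in each library). In dural ECs that sum came mostly from Gja1, and S100b had a log2 fold change below 0. The part of fibroblasts and astrocytes in the Heph count was not tested. The lists of mural cells, neurons and microglia overlapped between tissues. Ceruloplasmin (Cp), the related copper ferroxidase, had 6696 and 6231 counts in brain and 8100 and 9319 in dural ECs, a log2 fold change of 0.33 (SE 0.34, adjusted p 0.974 in edgeR).

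The ferritin chains were among the steadier members between replicates, and both were higher in each dural library than in each brain library, but neither passed the test. Fth1 (chromosome 19, 9980598 to 9985098, plus strand), the chain with ferroxidase activity, was at 545 and 849 CPM in brain ECs against 1518 and 1045 CPM in dural ECs. Its log2 fold change was 0.88 (SE 0.38, adjusted p 0.466 in edgeR). Ftl1 (chromosome 7, 45457944 to 45459884, minus strand), the chain that aids mineral formation, was at 244 and 420 CPM in brain ECs against 717 and 574 CPM in dural ECs. Its log2 fold change was 0.96 (SE 0.42, adjusted p 0.471 in edgeR). Over 15 alternatives the log2 fold change stayed above 0, from 0.44 to 1.18 for Fth1 and from 0.58 to 1.34 for Ftl1, and in none did it pass.

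The chains kept a similar ratio in each library. The count of Ftl1 per count of Fth1 was 0.448 and 0.495 in brain ECs against 0.472 and 0.549 in dural ECs, and the tissues overlapped. Within a tissue the library with more Fth1 also had more Ftl1, and replicates differed by at most 1.72-fold for either gene. Ferritin genes have processed copies in the mouse genome that could share reads with them, and Gm10252 on the opposite strand overlaps 26.5% of the exon length of Ftl1, so single-gene counts are uncertain. Fthl17, a ferritin-like symbol, and Ftmt, mitochondrial ferritin, had 0 counts in each library.

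Hmox1, which opens the heme ring and is switched on by stress (chromosome 8, 75093621 to 75100589, plus strand), was nearly absent in brain replicate 2. It had 504 and 10 counts in brain and 1488 and 553 in dural ECs, that is 34.8 and 0.756 CPM against 111 and 33.9 CPM. Brain replicate 1 and dural replicate 2 were at nearly the same level, and the groups overlapped. The log2 fold change was 2.02 (SE 2.00, adjusted p 0.968 in edgeR), and without brain replicate 1 it was 6.32 with an adjusted p of 0.0499 (from 0.0499 to 1.00 over the alternatives). That fit compares the brain library with 10 counts alone, with the spread taken from the dural libraries. Genes of the response to tissue dissociation, such as Junb and Ier3, were all above 0 in fold change (12 of 12, median 2.09, 5 called higher). They summed to 7305 and 7351 CPM in brain ECs and to 27279 and 31841 CPM in dural ECs. The part of the dissociation response in Hmox1 was not tested.

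The iron regulatory proteins did not differ in a way these libraries could resolve. Aco1 (on the plus strand of chromosome 4, 40143081 to 40198338) was at 29.8 and 13.9 CPM in brain ECs against 14.6 and 13.6 CPM in dural ECs, a log2 fold change of −0.63 (SE 2.30, adjusted p 1.00 in edgeR). Ireb2 (chromosome 9, 54863789 to 54912530, plus strand) had 418 and 86 counts in brain and 282 and 417 in dural ECs, a log2 fold change of 0.40 (SE 2.24, adjusted p 1.00 in edgeR). For both genes the dural libraries lay between or near the brain libraries, which differed 2.14-fold for Aco1 and 4.44-fold for Ireb2. The sign for Ireb2 turned to −0.37 without brain replicate 2.

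**Figure D3:**
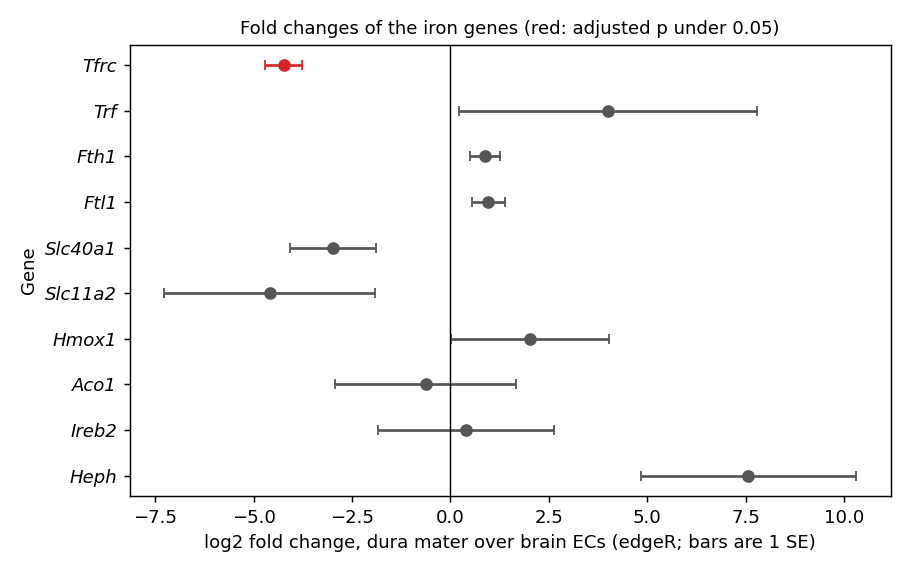
Log2 fold change of each iron gene, dural over brain ECs, from edgeR (points) with 1 SE to each side (bars); red marks an adjusted p under 0.05. Tfrc at −4.24 was the gene past the threshold, Fth1 and Ftl1 had small errors of 0.38 and 0.42, and Slc11a2, Trf and Heph had errors from 2.68 to 3.78; the Heph value rests on 0 counts in brain ECs and depends on the prior count.

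Read by the side of the match to the core motif, Tfrc, with 4 sites in its 3′ UTR, fell in dural ECs. Of the 3 members with a site in the 5′ UTR, Fth1 and Ftl1 had log2 fold changes above 0 and Slc40a1 below 0, and none passed the edgeR test. Forms of the element outside this exact core were not searched, so the other members, Slc11a2 among them, are not placed by side. Outside the members, Alas2 carries a 5′ match.

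Over the 10 members, 6 had a fold change above 0 and 4 below, with a median log2 fold change of 0.64 beside −0.01 over all genes tested. The groups did not overlap for 3 members that were higher and 3 that were lower in dural ECs, where 26.2% and 16.9% of all genes tested did so. At an unadjusted p under 0.05 there were 1 higher member (Heph) and 2 lower ones (Tfrc and Slc40a1), where 7.04% and 2.97% of all genes stood in edgeR.

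Other genes of iron handling were read from 9 lists, which held 81 further tested genes. In edgeR 0 of the 81 passed at an adjusted p under 0.05, 44 had a fold change above 0 and 37 below, and the median was 0.18. At an unadjusted p under 0.05, 7 were higher and 2 lower. DESeq2 called 6 of the 81, where it called 6.6% of all genes higher, and these were all higher in dural ECs: Bmp2, Steap4, Ppox, Nubp2, Gclc and Srxn1. Without brain replicate 1 or brain replicate 2 edgeR called 5, without dural replicate 2 it called 1, and without dural replicate 1 it called 0.

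In the transferrin cycle list (12 tested), 6 were above 0 and 6 below. Steap4, a metalloreductase, was at 0 counts in each brain library and at 228 and 516 in the dural libraries (adjusted p 0.466 in edgeR). Against the floor of 3 counts, which covers counting error only, it was at least 112-fold higher. Hfe, which binds the receptor, had 632 and 703 counts in brain and 0 and 509 in dural ECs. Vps35, of the retromer that returns receptors from endosomes, was at 25.7 ± 7.12 CPM in brain ECs against 112 ± 85.0 CPM in dural ECs (SD, n = 2; adjusted p 0.591 in edgeR). Tfr2, the second transferrin receptor, had 0 counts in each library. In the list of other uptake routes (4 tested, 3 above 0), Lcn2, a siderophore binding protein, had 2640 and 2346 counts against 3586 and 3232, a log2 fold change of 0.37 (SE 0.48).

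In the storage and chaperone list (5 tested, 3 above 0), Pcbp1, which hands iron to ferritin, was at 219 ± 2.74 and 299 ± 36.7 CPM (SD, n = 2), a log2 fold change of 0.45 (SE 0.43). In the export list (4 tested, 2 above 0), Abcg2, a heme and drug exporter that also belongs to the barrier markers, was at 846 ± 86.1 CPM in brain ECs against 459 ± 9.50 CPM in dural ECs, a log2 fold change of −0.88 (SE 0.33, adjusted p 0.466 in edgeR). The lists of export and of heme synthesis share Fech, which inserts iron into heme and had 1 and 228 counts against 711 and 300.

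The regulation list (11 tested, 8 above 0) had the highest median, 1.53. Bmp2, a ligand of the pathway that sets hepcidin, had 0 and 1 counts in brain and 2386 and 1340 in dural ECs, with the lowest edgeR adjusted p of the lists, 0.0883. Cul1, a subunit of the ligase that degrades IRP2, was at 17.9 ± 8.96 and 89.8 ± 28.0 CPM (adjusted p 0.621 in edgeR). Zc3h12a, a nuclease that cuts Tfrc transcripts among others, had 299 and 1 counts in brain and 969 and 462 in dural ECs. Hepcidin (Hamp) had 0 counts in each library.

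The heme synthesis list (10 tested, 4 above 0) had the lowest median, −0.79. Alas2 had a log2 fold change of −4.38 (SE 2.41, adjusted p 0.609 in edgeR), and it is also an erythroid marker. Urod had 1443 and 756 counts in brain and 1 and 456 in dural ECs. Ppox went the other way, with 0 counts in each brain library against 594 and 58 in dural ECs. Against the same floor, for counting error only, it was at least 110-fold higher. In the heme breakdown list (8 tested, 4 above 0), Nfe2l2, which encodes the stress factor Nrf2, had 188 and 561 counts against 2270 and 1281, Bach1, a repressor of Hmox1, had 134 and 5 against 333 and 289, and Keap1, which holds Nrf2 back, had 1018 and 1716 against 235 and 921. In edgeR these 3 genes were all short of the threshold (adjusted p from 0.552 to 1.00).

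In the mitochondrial and iron-sulfur list (21 tested, 10 above 0), Isca2, an assembly protein of iron-sulfur clusters, had 1694 and 2800 counts in brain and 0 and 285 in dural ECs, a log2 fold change of −4.21 (SE 2.24, adjusted p 0.582 in edgeR). Nubp2 and Nubp1, scaffolds of cytosolic iron-sulfur assembly, went the other way. Nubp2 had 0 and 1 counts against 573 and 431, and Nubp1 had 0 in both brain libraries against 151 and 208. Against the same floor, for counting error only, Nubp1 was at least 55.3-fold higher. In the list of Nrf2 targets besides Hmox1 (7 tested, 5 above 0), Gclc, of glutathione synthesis, was at 2 counts in each brain library and at 1062 and 371 in dural ECs (adjusted p 0.435 in edgeR). Srxn1, a sulfiredoxin, had 4 and 5 against 830 and 414 (adjusted p 0.466 in edgeR), and G6pdx had 1 and 136 against 679 and 347 (adjusted p 0.974 in edgeR).

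**Figure D4:**
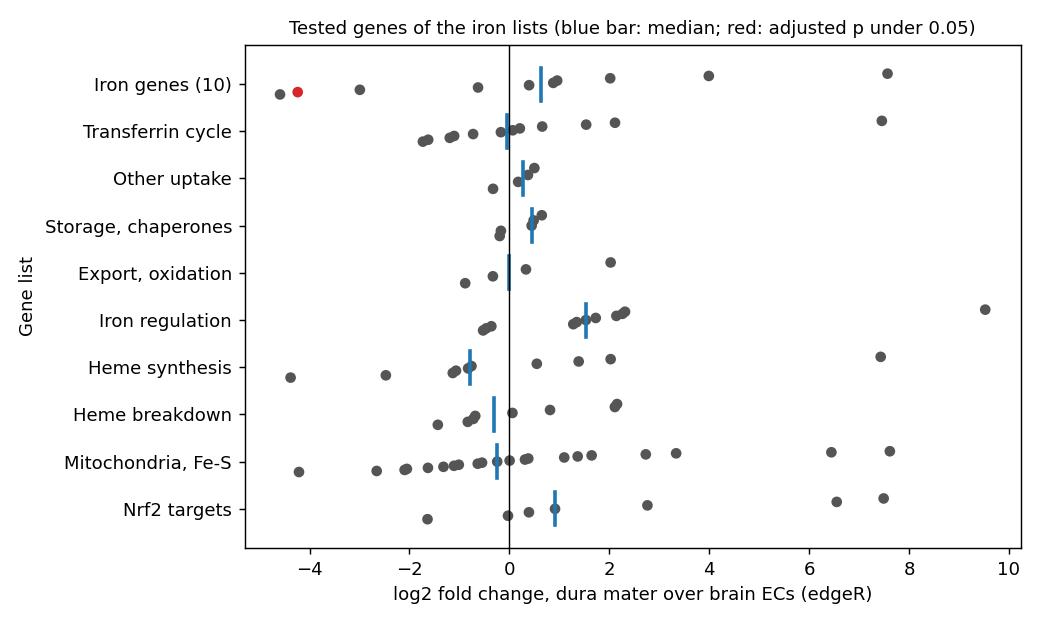
Log2 fold change, dural over brain ECs, of each tested gene (points) of the 10 iron genes and the 9 further iron lists, with the list median (blue bar); red marks an adjusted p under 0.05 in edgeR. Tfrc is the single red point, and list medians ran from −0.79 (heme synthesis) to 1.53 (iron regulation); values of genes with 0 counts in a tissue depend on the prior count.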

How the data were processed

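RNA of sorted ECs was made into QuantSeq libraries, which read transcript 3′ ends. The authors deposited raw counts per gene symbol, 1 table per library; the values were not scaled. The submitters' processing notes name mm10, Bowtie2 and edgeR, and the methods of the study name TopHat and cufflinks; the counting step, the annotation, the use of strand and molecular identifiers are not given in the sources used here. The cufflinks test needs alignments, so edgeR 4.0.16 (R 4.3.3; quasi-likelihood test, older dispersion estimate, filterByExpr, TMM, tissue as the only term, prior count 2) was fitted over all genes with Benjamini-Hochberg adjustment; an adjusted p under 0.05 was a call. SE is the size of the log2 fold change over the root of F. The common biological coefficient of variation was 1.39. Depth is 13518973 to 16096203 counts, and floors of 3 counts cover counting error only. Scripts were tested on simulated data. With 2 libraries against 2, an exact permutation test cannot go below p = 0.333 and was not used.

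The members, lists and tests were chosen with earlier results of these data known. Besides the members, the text names, per iron list, called genes and up to 3 further genes with no overlap, 10 CPM or more in the higher tissue and the largest fold change, and, per marker list, genes at 0 and up to 4 with most counts; for Tfrc, the 5 genes nearest in profile are named. Tfr2, Hamp, Ptprc, Steap3, Dcn, Col1a1, Pdgfra and Lum are outside this rule and were chosen after their values were seen. Some items are not reported here. Alternatives were DESeq2 1.42.0, limma-voom (limma 3.58.1), another dispersion estimate, other scalings, filters and prior count, a replicate block and each library left out. Replicate numbers come from the sample titles. Positions and transcript sequences are from GENCODE M21 (GRCm38), in which all 10 members matched by symbol.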

Additional observations from a re-analysis of the deposited data

How the results depend on the processing

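Counts are of genes with an adjusted p under 0.05. Against 57 genes in the edgeR test (70.2% higher in dura mater ECs), DESeq2 called 807, the newer dispersion estimate 305 (59.0% higher), no filter on low counts 326 (59.8%), at least 10 counts in every library 141 (53.2%) and the replicate block 224 (59.4%); limma-voom called 80 (50.0%). Leaving out 1 library gave from 80 (without dura mater replicate 1) to 740 (without brain replicate 1), with 701 without brain replicate 2 and 97 without dura mater replicate 2; in these fits 1 tissue has a lone library, assumed to vary like the other tissue, and the cause was not tested. Of the members, 1 (Tfrc) was called, and 2 under DESeq2, under the newer estimate and without the filter. Leaving out a library gave from 1 to 3. Of the further iron genes, 0 were called, against 6 in DESeq2, 2 under the newer estimate, 2 without the filter and 1 with the replicate block (Bmp2). Leaving out a library gave from 0 to 5. Leaving out a library, the log2 fold change of Trf ran from −1.73 (without dura mater replicate 2) to 6.74, and that of Ireb2 from −0.37 (without brain replicate 2) to 1.77; the other 8 members kept their direction under all alternatives run. At least 10 counts in every library left 7 members to test. Upper-quartile scaling moved the median of all genes to 0.13 and limma-voom to 0.28. Same-numbered libraries did not deviate together (correlation across 9347 genes −0.0153), so the replicate block is no pairing shown by the data. The common coefficient of variation of 1.39 does not describe each gene. Fth1 and Ftl1 had SEs of 0.38 and 0.42 on the log2 scale, and neither difference passed in edgeR.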
